A study of Mus musculus with 4 samples.

Results

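Interleukin-6 family signalling was followed through 10 genes taken by name: the ligand genes Il6, Il11 and Lif, the receptor chain genes Il6ra, Il6st, Lifr, Osmr and Il22ra1, the transcription factor gene Stat3 and the inhibitor gene Socs3. All 10 were among the 50766 genes of the deposited tables. The study sequenced RNA of single liver cells, labelled as biliary epithelial cells (BECs, which line the bile ducts). All 4 mice carried the genotype Sox9EGFP, a name that couples the Sox9 gene, active in BECs, to a green fluorescent protein. In 2 mice cells were taken 7 days after sham surgery and in 2 mice 7 days after bile duct ligation (BDL), in which the duct is tied so that bile backs up into the liver. Each mouse gave 1 library.

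Cytokines of this family bind a specific receptor chain and then recruit a shared signalling chain, gp130, the product of Il6st. The receptor complex activates Janus kinases, which phosphorylate STAT3. STAT3 then enters the nucleus and turns on target genes, among them Socs3, whose product binds gp130 and the kinases and shuts the signal down. In liver the pathway is best known for the acute phase response of hepatocytes, and BECs respond to it as well.

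The libraries held 2863 and 3194 cells (sham replicates 1 and 2) and 2089 and 4065 cells (BDL replicates 1 and 2), and no cell barcode was shared between libraries. Their totals ran from 10024577 to 33809650 unique molecular identifiers (UMIs, one per captured RNA molecule). The cell tables carry group names of their own, and these contradict the sample labels for sham replicate 2, named BDL there, and BDL replicate 2, named sham. Groups follow the sample labels below, and values from sham replicate 1 and BDL replicate 1 alone, for which both names match, are given beside the main results. In the clustering the libraries of 1 label fell together: the largest cluster held 4 and 1 sham and 534 and 1225 BDL cells, and the next 974 and 751 sham and 4 and 4 BDL cells. After filters, 12181 of 12211 cells remained. By marker genes 10963 cells were called BEC-like, and each of the 13 biliary markers, such as Epcam, Krt19 and Sox9, was detected in them. A further 804 cells were mesenchymal-like (stellate cells and fibroblasts), 215 endothelial-like, 88 macrophage-like and 83 hepatocyte-like, and 28 stayed unnamed. The median BEC-like cell had 3304.5 and 2765 UMIs after sham surgery and 7130 and 7876 after BDL. Levels are therefore given as counts per 1000000 UMIs of the class (CPM), which removes depth but also hides any change in total RNA per cell, and UMIs per 1000 cells are set beside them for members that passed or were lower in both BDL libraries.

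The ligand genes were found in different cells. Il6, the founding cytokine of the family, was read almost wholly from mesenchymal-like cells, which held 230 of its 239 UMIs, or 96.2% (exact 95% interval 93.0 to 98.3%), though they were 6.60% of all cells. BEC-like cells held 6 Il6 UMIs in all, from 6 cells with 1 UMI each. Lif, which encodes leukemia inhibitory factor, had the opposite distribution, with 17663 of 17921 UMIs, or 98.6%, in BEC-like cells, which were 90.0% of the cells. Il11 was divided, with 307 of 452 UMIs (67.9%) in BEC-like and 143 (31.6%) in mesenchymal-like cells. Intervals on shares and levels cover counting error only.

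In mesenchymal-like cells Il6 stood at 66.6 and 33.3 CPM after sham surgery and at 101 and 79.5 CPM after BDL, from 48, 42, 52 and 88 UMIs. Both BDL libraries were above both sham libraries, while the log2 fold change of 0.85 ± 0.34 (SE, n = 2 per group) missed the threshold in edgeR's quasi-likelihood test (adjusted p = 0.170). This fold change ran from 0.43 to 1.34 when 1 library was left out. The label-matching libraries stood at 66.6 CPM (sham) and 101 CPM (BDL). Il6 UMIs came from few cells: 16 of 187, 14 of 414, 16 of 71 and 32 of 132 mesenchymal-like cells had any, and a single cell had up to 14. At 1000 UMIs per cell the shares were 3.31%, 0.542%, 5.63% and 7.58%. Il6 stood at 0, 0.237, 0.0685 and 0.0941 CPM in BEC-like cells, in the order sham replicates 1 and 2, then BDL replicates 1 and 2, which is also the order of each list of 4 values below. No group difference in BEC-like Il6 was detectable at this depth, where 3 UMIs correspond to between 0.0941 and 0.356 CPM.

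The mesenchymal-like cells fell into 4 clusters that differed in Il6. A cluster led by Colec10 and Lrat (472 cells), genes of stellate cells at rest, stood at 14.2 CPM (exact Poisson 95% interval 8.77 to 21.6). A cluster led by C7 and Igfbp3 (149 cells, 145 of them from sham libraries) stood at 55.3 CPM. Another, led by Fbn2, Col15a1 and Serpina3n (149 cells, 143 of them from BDL libraries), stood at 89.9 CPM. The highest level, 216 CPM (interval 166 to 276), was in 34 cells led by Slit3, Cilp and Mfap5, of which 29 came from sham libraries. Within sham cells alone Il6 was at 7.68 CPM in the first cluster, 49.2 CPM in the second and 180 CPM in the last, and within BDL cells alone it was at 38.6 CPM in the first and 85.1 CPM in the Fbn2 cluster. Within the first cluster Il6 was at 14.3, 4.86, 65.8 and 6.96 CPM, so BDL replicate 1 stood above the other libraries and BDL replicate 2, with 22 cells, did not. The make-up of the mesenchymal-like class thus differed between the groups together with its Il6 level, and the part of that make-up in the difference was not tested.

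**Figure D1:**
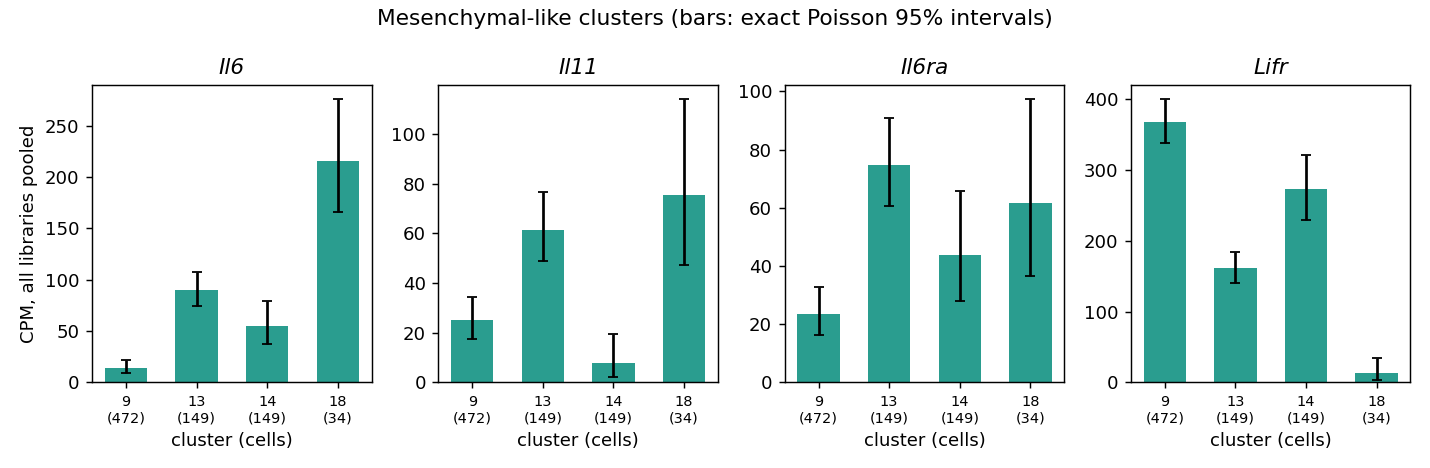
Bars give CPM, pooled over all 4 libraries, of Il6, Il11, Il6ra and Lifr in the 4 mesenchymal-like clusters, numbered as in the clustering with their cells in brackets (9 led by Colec10, 13 by Fbn2, 14 by C7, 18 by Slit3), and error bars are exact Poisson 95% intervals. Il6 is lowest in cluster 9 at 14.2 CPM and highest in cluster 18 at 216 CPM, where Lifr is lowest at 13.7 CPM. The Il11 bar of cluster 13 pools unlike libraries, with 2.90 CPM in BDL replicate 1 and 84.5 CPM in BDL replicate 2.

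Il11 encodes a cytokine known for its action on fibroblasts. In mesenchymal-like cells it was at 27.8, 16.7, 25.3 and 80.4 CPM. The groups overlapped, and BDL replicate 2 alone was high, with 34 of its 89 UMIs in 1 cell. The log2 fold change of 1.34 ± 0.49 (SE) did not pass (adjusted p = 0.136 in edgeR). It was 0.25 without BDL replicate 2 and 1.84 without BDL replicate 1, where it passed (adjusted p = 0.00242). In the label-matching libraries alone it was -0.13. In BEC-like cells Il11 was at 7.10, 5.69, 4.45 and 3.92 CPM, lower in both BDL libraries, with a log2 fold change of -0.59 ± 0.24 (SE) that did not pass (adjusted p = 0.111). Per 1000 BEC-like cells its UMIs numbered 22.5 after sham surgery and 33.0 after BDL, the other direction.

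Among BEC-like cells, 5 of the 9 members with enough counts for the test differed between BDL and sham, against 27.1% of all 16036 genes tested. Lif and Osmr rose (2 of 9, where 14.2% of all genes rose), and Socs3, Stat3 and Lifr fell (3 of 9, where 12.9% of all genes fell). The median log2 fold change of the 9 was -0.32, and that of all genes tested was -0.03. DESeq2 called 6 of them, Il6st being the addition. Il6 had too few counts for edgeR's filter in BEC-like cells. In the same cells the 6 smooth muscle and pericyte markers summed to 268, 157, 1228 and 1477 CPM and the 10 hepatocyte markers to 1331, 1346, 225 and 171 CPM, all detected, and their part in the members' changes was not tested.

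**Figure D2:**
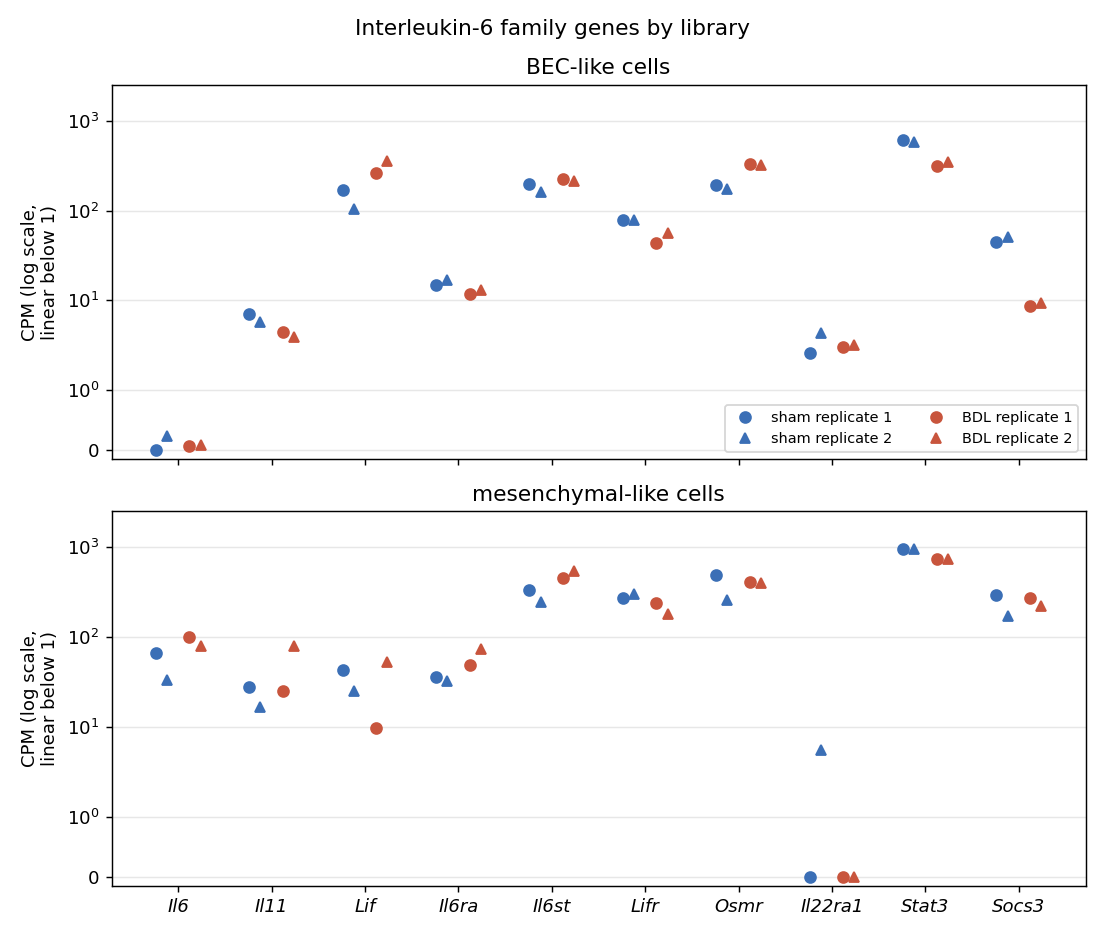
Each point is the CPM of 1 gene in 1 library (blue sham, red BDL, circle replicate 1, triangle replicate 2), in BEC-like cells above and mesenchymal-like cells below, on an axis that is logarithmic above 1 and linear below. In BEC-like cells both BDL libraries lie above both sham libraries for Lif and Osmr and below them for Lifr, Stat3 and Socs3.

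Lif in BEC-like cells was at 170 and 103 CPM after sham surgery and at 261 and 355 CPM after BDL. The groups did not overlap, although replicates differed within each. The log2 fold change was 1.21 ± 0.23 (SE, n = 2 per group, 2.31-fold, adjusted p = 0.0108 in edgeR). It was 0.62 in the label-matching libraries alone. It passed within each of the 8 sublibraries, the pools into which cells of all mice were divided for sequencing, with values from 0.86 to 1.49. Sublibraries, here and below, split the cells of the same mice, so passes within them are not further replicates. Counted per cell, Lif rose from a mean of 485 to 2461 UMIs per 1000 BEC-like cells.

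The share of BEC-like cells with a Lif UMI, after every cell was thinned to 1000 UMIs, was 10% and 6.92% after sham surgery and 17.9% and 24.1% after BDL. The thinning left out 76 and 106 shallower sham cells and no BDL cell. Without thinning the difference between the group means was 38.0 percentage points instead of 12.5. In mesenchymal-like cells the thinned share was 2.76%, 1.90%, 0% and 6.06%, at median depths of 3263, 2297, 6294 and 7324.5 UMIs before thinning, the 0 being 0 of 71 cells with an upper exact 95% limit of 5.06%. An exact permutation test of 2 against 2 libraries cannot go below p = 0.33 (two-sided), which is the value for Lif in BEC-like cells. Macrophage-like cells, in which Lif was at 160, 0, 115 and 266 CPM, also carried biliary markers, whose summed level in them was 6145, 635, 7933 and 12979 CPM against 14098 to 15593 CPM in BEC-like cells. Mesenchymal-like cells had Lif at 43.0, 25.4, 9.74 and 52.4 CPM and biliary markers at 582 to 1950 CPM.

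Receptor chains were measured in every class. Osmr encodes the chain that pairs with gp130 to bind oncostatin M. In BEC-like cells it was at 193 and 176 CPM after sham surgery and at 330 and 324 CPM after BDL. The replicates lay close together and the groups were far apart, with a log2 fold change of 0.85 ± 0.10 (SE, adjusted p = 0.00265 in edgeR). The change was 0.77 in the label-matching libraries, and leaving out any 1 library moved it only between 0.85 and 0.88. Per 1000 BEC-like cells Osmr UMIs rose from a mean of 646 to 2588. It was between 0.45 and 0.92 within sublibraries and passed in 7 of 8. In mesenchymal-like cells Osmr was at 493, 260, 405 and 399 CPM, with no separation of the groups.

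Lifr encodes the chain that pairs with gp130 to bind LIF. It fell in BEC-like cells from 78.7 and 77.7 CPM to 43.8 and 55.6 CPM. The log2 fold change was -0.63 ± 0.15 (SE, adjusted p = 0.0228 in edgeR) and -0.84 in the label-matching libraries. It no longer passed without sham replicate 1 (-0.69, adjusted p = 0.111) or without sham replicate 2 (-0.54, adjusted p = 0.160), and passed within 4 of 8 sublibraries. Per 1000 BEC-like cells Lifr UMIs numbered 273 after sham surgery and 396 after BDL, so its share of the RNA was lower while its count per cell was not. Mesenchymal-like Lifr, at 275, 302, 240 and 183 CPM, was also lower in both BDL libraries without passing (-0.50 ± 0.25, SE, adjusted p = 0.263), and numbered 988 and 1631 UMIs per 1000 cells. Lifr stood at 183 to 302 CPM in mesenchymal-like and 305 to 489 CPM in endothelial-like cells, above BEC-like cells, ranges that did not overlap, though the highest mesenchymal-like and the lowest endothelial-like value were close. The few macrophage-like and hepatocyte-like cells, at 0 to 115 CPM, overlapped the BEC-like values. Hepatocyte-like cells also carried biliary markers, at 10430, 4391, 13917 and 12487 CPM.

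Il6st, the gene of gp130, was at 198, 159, 226 and 214 CPM in BEC-like cells. Both BDL libraries were higher, but the log2 fold change of 0.33 ± 0.11 (SE) missed the threshold (adjusted p = 0.0736 in edgeR), which it passed in DESeq2 (adjusted p = 0.0486). In mesenchymal-like cells Il6st was at 336, 245, 452 and 548 CPM, a log2 fold change of 0.75 ± 0.23 (SE, adjusted p = 0.0869). Endothelial-like cells held 379 to 633 CPM, which overlapped the mesenchymal-like values and lay above those of BEC-like cells.

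Il6ra encodes the chain that binds interleukin-6 itself and can also act when shed from the cell. In BEC-like cells it was at 14.8, 17.0, 11.9 and 13.2 CPM, with a log2 fold change of -0.32 ± 0.19 (SE, adjusted p = 0.239). Per 1000 cells the BEC-like count was 55.2 after sham surgery and 99.4 after BDL. In mesenchymal-like cells it was at 36.1, 32.6, 48.7 and 73.2 CPM. The mesenchymal-like groups did not overlap, and the log2 fold change of 0.82 ± 0.31 (SE) did not pass (adjusted p = 0.150). Macrophage-like cells had 183, 572, 126 and 55.8 CPM, from 45 UMIs in all. Il22ra1, which encodes a chain of the interleukin-22 receptor, lay at 2.57, 4.39, 3.01 and 3.17 CPM in BEC-like cells. These cells held 207 of its 217 UMIs, or 95.4%, and were 90.0% of all cells. The groups overlapped for Il22ra1 (log2 fold change -0.15 ± 0.37, adjusted p = 0.789 in edgeR).

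Stat3 fell in BEC-like cells from 611 and 584 CPM to 311 and 343 CPM. The groups did not overlap, and the log2 fold change was -0.85 ± 0.12 (SE, adjusted p = 0.00394 in edgeR) and -0.98 in the label-matching libraries. The fall passed within all 8 sublibraries, with values down to -1.0, and held when any 1 library was left out (-0.92 to -0.75). After thinning to 1000 UMIs a Stat3 UMI was found in 42.5% and 40.4% of sham and 25.7% and 27.5% of BDL BEC-like cells. Without thinning the difference had the other sign, at 10.6 percentage points in cells of unequal depth. Per 1000 BEC-like cells Stat3 UMIs numbered 2090 after sham surgery and 2593 after BDL. In mesenchymal-like cells Stat3 was at 963, 948, 748 and 736 CPM, lower in both BDL libraries, with a log2 fold change of -0.40 ± 0.22 (SE) that did not pass (adjusted p = 0.326), while its UMIs per 1000 cells numbered 3298 after sham surgery and 5788 after BDL.

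Socs3, the feedback inhibitor, had the largest fold change in CPM of the 9 members tested in BEC-like cells. Per cell Lif, Osmr and Il6st changed more. Socs3 fell after BDL. It was at 44.7 and 50.5 CPM after sham surgery and at 8.77 and 9.41 CPM after BDL. Each group was tight, and the log2 fold change was -2.37 ± 0.16 (SE, 0.194-fold, adjusted p = 0.000441 in edgeR). The fall was -2.35 in the label-matching libraries, between -2.55 and -2.22 within the 8 sublibraries, all of which passed, and between -2.52 and -2.18 when any 1 library was left out. Socs3 also fell per cell, from a mean of 166 to 72.1 UMIs per 1000 BEC-like cells. Thinned to 1000 UMIs, 5.02% and 4.91% of sham and 1.12% and 1.10% of BDL BEC-like cells had a Socs3 UMI. In mesenchymal-like cells Socs3 was at 296, 173, 269 and 221 CPM, where both BDL values fell between those of the sham libraries, and in endothelial-like cells it was at 608, 179, 431 and 191 CPM.

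The promoters of Socs3, Lif and Osmr are printed here because these genes changed in BEC-like cells and hold 1 or more of the 3 motifs searched. Sequences are from RefSeq on GRCm38.p6, an older build than the GRCm39 of the count tables, and all 10 members matched by symbol, with 12 windows of 300 bases (250 before and 50 after the start of the gene). The first 280 bases are shown 5′ to 3′, with motif matches in capitals. They lie at chr11:117969337-117969616 (minus strand) for Socs3, chr11:4257318-4257597 (plus strand) for Lif and chr15:6874284-6874563 (minus strand) for Osmr.
Socs3: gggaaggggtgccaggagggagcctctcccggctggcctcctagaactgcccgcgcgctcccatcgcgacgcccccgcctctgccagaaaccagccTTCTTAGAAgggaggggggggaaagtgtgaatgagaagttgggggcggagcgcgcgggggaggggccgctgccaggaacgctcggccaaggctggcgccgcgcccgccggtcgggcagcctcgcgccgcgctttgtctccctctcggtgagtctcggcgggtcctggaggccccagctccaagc
Lif: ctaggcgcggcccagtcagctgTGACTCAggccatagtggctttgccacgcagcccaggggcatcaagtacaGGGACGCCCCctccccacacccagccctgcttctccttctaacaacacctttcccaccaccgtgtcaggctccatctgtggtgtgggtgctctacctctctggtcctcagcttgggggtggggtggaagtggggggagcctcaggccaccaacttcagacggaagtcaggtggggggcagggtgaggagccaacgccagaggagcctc
Osmr: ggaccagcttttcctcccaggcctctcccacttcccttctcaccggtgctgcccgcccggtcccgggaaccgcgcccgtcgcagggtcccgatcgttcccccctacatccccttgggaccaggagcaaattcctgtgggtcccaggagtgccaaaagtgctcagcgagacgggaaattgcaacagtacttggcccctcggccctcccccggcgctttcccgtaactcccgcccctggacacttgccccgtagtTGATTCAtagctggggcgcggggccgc
Both strands were searched for the STAT motif TTCNNNGAA, the AP-1 motif TGANTCA and the NF-kB motif, and no matches overlapped. Among the 10 members the STAT motif was found in Socs3 only, as TTCTTAGAA from base -154 to -146 relative to the start, and 8.30% of all 32851 windows held it. The AP-1 motif (7.81% of windows) was found in 5 members, among them Lif from base -228 to -222 and Osmr from base 3 to 9. The NF-kB motif (8.46% of windows) was found in 3 members, among them Il6 from base -44 to -35 and Lif from base -178 to -169. Stat3 and Lifr held no match in these windows. A match describes the letters only and says nothing of binding.

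In mesenchymal-like cells 0 of the 9 members tested passed in edgeR, where 6.81% of all 8786 genes tested passed (2.63% higher, 4.18% lower). At an unadjusted p under 0.05 there were 4 (Il6, Il11, Il6ra and Il6st, all higher after BDL), and DESeq2 called 0. The median log2 fold change of the 9 was 0.08, and that of all genes tested was 0.00. This class held 71 to 414 cells per library. In it the endothelial markers summed to 383, 326, 684 and 765 CPM and the plasma cell markers to 37.5, 29.4, 93.5 and 141 CPM. The smooth muscle and pericyte markers and the mesothelial markers were lower in both BDL libraries. The part of these shifts in the members' changes was not tested.

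**Figure D3:**
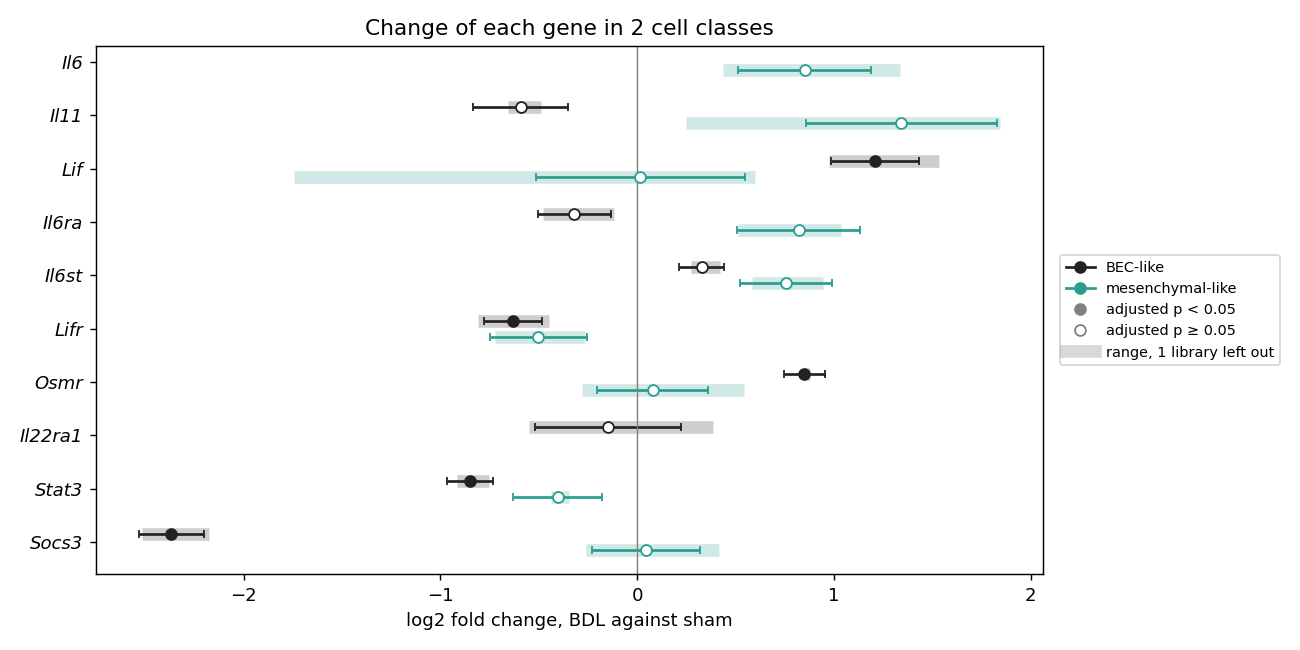
Points give the log2 fold change of BDL against sham for each gene in BEC-like (black) and mesenchymal-like (green) cells, whiskers its SE, broad bands the range when 1 library is left out, and filled points an adjusted p under 0.05. Socs3 lies at -2.37 in BEC-like and 0.04 in mesenchymal-like cells.

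Whether the change differed between the classes was tested in 1 model over both, with the mouse as a block. The difference, BEC-like minus mesenchymal-like, passed for 3 members, against 6.62% of 15295 genes tested. For Socs3 it was -2.42 ± 0.30 (SE, adjusted p = 4.14e-06 in edgeR), and it passed without any 1 of the libraries, at -2.97 to -1.90. The differences of Il11 (-1.87 ± 0.55, adjusted p = 0.0345) and Lif (1.31 ± 0.40, adjusted p = 0.0452) depended on single libraries. That of Il11 was lost without sham replicate 2 (-1.60, adjusted p = 0.189) or BDL replicate 2 (-0.66, adjusted p = 0.772). That of Lif was lost without sham replicate 1 (1.22, adjusted p = 0.151), sham replicate 2 (1.36, adjusted p = 0.0567) or BDL replicate 1 (0.85, adjusted p = 0.245), with DESeq2's size factors (1.26, adjusted p = 0.0661) and at clustering resolution 2 (1.29, adjusted p = 0.0520). Osmr, which passed in BEC-like cells and not in mesenchymal-like cells, was not shown to differ between them (0.72 ± 0.28, adjusted p = 0.139). It passed without sham replicate 2 (1.16, adjusted p = 0.0168).

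The members also varied within the BEC-like cells, in clusters that were each drawn mostly from 1 group. Of the sham clusters, the one led by Ddit4l, Txnip, Fos and Jun (1469 cells) had Lif at 11.6 and 12.4 CPM, while the one led by Car4 and Tff2 (1209 cells) had it at 431 and 254 CPM. Socs3 ran the other way, at 93.0 and 98.7 CPM in the first and 12.2 and 16.7 CPM in the second. Stat3 went with Socs3, at 856 and 893 CPM against 432 and 317 CPM. A sham cluster led by Aldh3b3 (780 cells) resembled the first, with Lif at 26.6 and 15.4 CPM and Socs3 at 55.3 and 57.3 CPM.

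The BDL clusters showed the same arrangement. Lif was highest in the cluster led by Nos2 and Ccl20 (1764 cells), at 414 and 494 CPM, where Osmr was highest too, at 437 and 395 CPM, and Socs3 was at 4.38 and 4.96 CPM. Clusters led by Ankrd1 and Ccn2 (1464 cells) and by Dmbt1 and Duox2 (1145 cells) had Lif at 260 to 398 CPM and Socs3 at 3.64 to 6.19 CPM. In contrast, the cluster led by Wnt9a and Foxj1 (742 cells) had Lif at 23.3 and 35.5 CPM, Socs3 at 25.2 and 39.7 CPM and Stat3 at 471 and 546 CPM. Cycling cells, led by H1f5 and Mki67 (271 cells), had Lif at 204 and 364 CPM and Socs3 at 6.08 and 5.01 CPM. Lif was thus lowest in both groups in clusters where Socs3 and Stat3 were high. The cells were clustered on genes of the same libraries, so these values describe the clusters and carry no test.

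**Figure D4:**
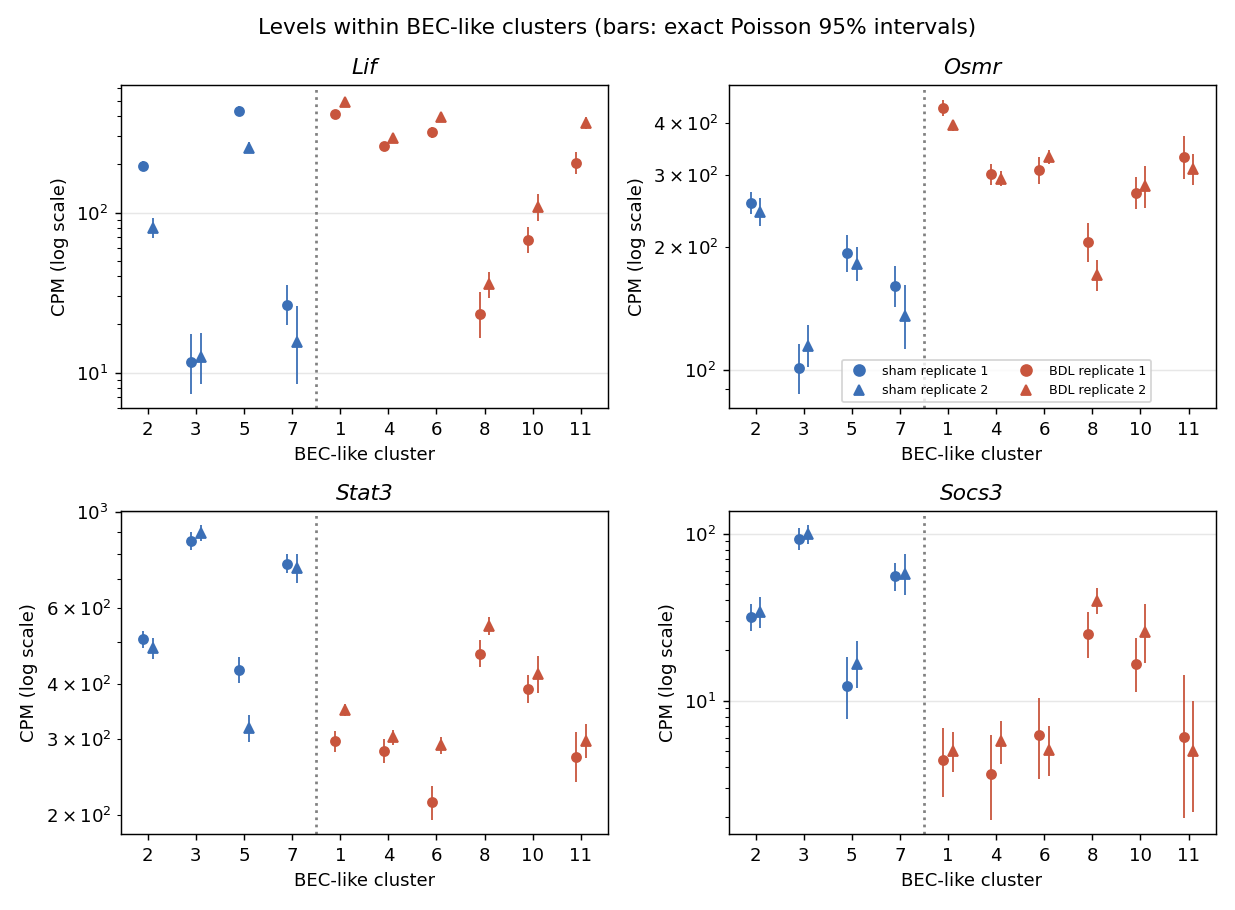
CPM on log axes of Lif, Osmr, Stat3 and Socs3 in 10 BEC-like clusters, numbered as in the clustering, with clusters mostly of sham cells left of the dotted line and of BDL cells right of it (3 is led by Fos and Jun, 5 by Car4, 1 by Nos2, 8 by Wnt9a). Points are libraries with at least 20 cells in the cluster (blue sham, red BDL, circle replicate 1, triangle replicate 2) and bars exact Poisson 95% intervals, and Lif is lowest in cluster 3 at 11.6 and 12.4 CPM, where Socs3 is highest at 93.0 and 98.7 CPM.

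Early response genes, such as Fos, Jun and Egr1, are switched on within minutes of a stimulus or of tissue dissociation. Their CPM, like that of Socs3, was lower after BDL in BEC-like cells. Socs3 also fell per cell, while counts per cell of the early response genes are not given here. Of 17 such genes, chosen after the values were seen, 14 fell and 1 (Ier3) rose in BEC-like cells, where 12.9% and 14.2% of all genes did, with a median log2 fold change of -1.09, and their summed level was 14133, 18407, 6280 and 6125 CPM. In mesenchymal-like cells 2 of the 17 fell, against 4.18% of all genes, and the sum was 17380, 19716, 13001 and 13711 CPM. The cluster led by Fos and Jun held 1465 sham and 4 BDL cells and was chosen with its Socs3 and Lif levels known, so the direction in which leaving it out moves their fold changes is set by the choice, and these values describe the other cells only. Without it Socs3 was at -1.77 (adjusted p = 0.00104 in edgeR), Stat3 at -0.59 (adjusted p = 0.0201), Lif at 0.84 (adjusted p = 0.0291) and Osmr at 0.67 (adjusted p = 0.00965). Lifr no longer passed (-0.48, adjusted p = 0.0627) and Il11 did (-0.93, adjusted p = 0.0346). The part of early response genes in these changes was not tested.

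Further genes of the pathway were read from lists. Rises and falls of these genes are in CPM, and their counts per cell are not given. Because BEC-like and mesenchymal-like cells held more UMIs after BDL, a fall in CPM need not be a fall per cell. Of 10 other ligand genes only Clcf1 and Ctf1 had enough counts in BEC-like cells, and neither passed (0 at an unadjusted p under 0.05 in edgeR, 0 in DESeq2), with Clcf1 at 264, 180, 190 and 249 CPM. Osm, the gene of oncostatin M, was read in macrophage-like cells, from 2, 0, 3 and 7 UMIs, and Il22 had no UMI in any class.

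Of 5 other receptor chain genes tested in BEC-like cells 1 rose and 1 fell, where 14.2% and 12.9% of all genes did (4 at an unadjusted p under 0.05, 3 in DESeq2). Il20rb, whose product pairs in receptors of interleukin-20 cytokines, rose from 10.5 and 10.8 to 19.1 and 15.8 CPM (log2 fold change 0.73, adjusted p = 0.0294). Il11ra1, the interleukin-11 receptor gene, fell from 11.4 and 10.6 to 4.86 and 4.74 CPM (-1.17, adjusted p = 0.00743). Between the proteases that shed interleukin-6 receptor from the cell, Adam10 rose (0.66, adjusted p = 0.0174) and Adam17, at 75.3, 58.8, 84.2 and 74.1 CPM, did not pass. In mesenchymal-like cells 0 of 4 receptor chain genes passed (2 at an unadjusted p under 0.05, 0 in DESeq2), and 0 of 2 proteases (1 and 0), where 6.81% of all genes passed.

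Among 10 other transducer genes in BEC-like cells, 1 rose and 3 fell (14.2% and 12.9% of all genes tested did), with a median log2 fold change of -0.06. The kinase gene Tyk2 rose (0.78, adjusted p = 0.0154), while Stat5b fell from 162 and 96.3 to 53.4 and 32.6 CPM (-1.56, adjusted p = 0.00940). Grb2, an adaptor gene, fell by 0.41 on the log2 scale (adjusted p = 0.0297). In mesenchymal-like cells 2 of 9 fell (4.18% of all genes did), among them the adaptor gene Gab1 (-1.19, adjusted p = 0.0186).

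Of 9 other inhibitor genes tested in BEC-like cells 1 rose and 2 fell, near the 14.2% and 12.9% of all genes, with a median log2 fold change of -0.01. Socs2, best known as a brake on growth hormone signalling, was at 156 and 122 CPM after sham surgery and at 560 and 536 CPM after BDL (4.01-fold, SE of the log2 fold change 0.12, adjusted p = 0.000389 in edgeR). The groups were far apart, in the direction opposite to Socs3. Socs1 fell (-1.39, adjusted p = 0.0133), as did Pias1 (-0.39, adjusted p = 0.0345). In mesenchymal-like cells 1 of 8 passed (6.81% of all genes did), the phosphatase gene Ptprt, which fell from 325 and 349 to 15.6 and 28.0 CPM (-3.91, adjusted p = 0.000747).

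Genes listed as STAT3 targets, all 20 of which were tested in BEC-like cells, included 4 that rose and 6 that fell, where 14.2% and 12.9% of all genes did, with a median log2 fold change of 0.11. Tnfaip3, an inhibitor of NF-kB signalling, rose from 162 and 167 to 599 and 677 CPM (1.97, adjusted p = 0.000435), Steap4, a metalloreductase gene, by 2.67 (adjusted p = 0.00259) and Timp1, a metalloproteinase inhibitor, by 2.35 (adjusted p = 0.00266), both on the log2 scale. Pim3, a kinase gene, fell from 45.8 and 41.9 to 14.9 and 13.9 CPM (-1.58, adjusted p = 0.000701). Zfp36, which promotes decay of cytokine mRNA, fell by 1.27 (adjusted p = 0.000799) and Junb, an AP-1 gene, by 1.09 (adjusted p = 0.00635), both on the log2 scale. In mesenchymal-like cells 1 of 19 rose, Timp1 (3.19, adjusted p = 0.00236), and 2 fell, among them the adhesion molecule gene Icam1 (-1.49, adjusted p = 0.0127), where 2.63% and 4.18% of all genes did. Many of these genes answer to other signals too.

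Of 11 acute phase genes tested in BEC-like cells 5 rose and 4 fell, where 14.2% and 12.9% of all genes did, with a median log2 fold change of 1.04. Lcn2, which encodes an iron-carrier-binding defence protein, rose from 141 and 96.6 to 679 and 677 CPM (2.54, adjusted p = 0.000389). The complement gene C3 rose from 652 and 516 to 1571 and 2137 CPM (1.69, adjusted p = 0.00149), and the fibrinogen gene Fgb by 2.30 on the log2 scale (adjusted p = 0.00629). Fgg, which encodes a further chain of fibrinogen, fell from 30.2 and 31.2 to 9.32 and 9.79 CPM (-1.66, adjusted p = 0.00103). Hamp, the hepcidin gene, fell by 3.95 (adjusted p = 0.00108) and Crp by 1.34 (adjusted p = 0.00169), both on the log2 scale. Fgb is 1 of the 10 hepatocyte markers summed above and rose while their sum was lower after BDL, and their part in the acute phase genes was not tested. In mesenchymal-like cells 2 of 5 rose, Serpina3n (4.91, adjusted p = 0.00225) and Lcn2, and none fell, where 2.63% and 4.18% of all genes did. Biliary markers summed to 749, 1950, 582 and 1431 CPM in mesenchymal-like cells, and their part in this Lcn2 rise was not tested.

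Cytokines and factors that induce Il6 were the last list. Of 7 tested in BEC-like cells 4 rose and none fell (14.2% and 12.9% of all genes tested), with a median log2 fold change of 0.69. Tnf rose from 11.7 and 7.47 to 72.7 and 53.7 CPM (2.74, adjusted p = 0.000707), Il1r1, the interleukin-1 receptor gene, from 38.4 and 47.9 to 101 and 97.0 CPM (1.22, adjusted p = 0.00389), and Il1a from 0.514 and 0.475 to 2.33 and 7.97 CPM (3.42, adjusted p = 0.0174). The 10 macrophage markers summed to 45.0, 42.1, 42.8 and 45.1 CPM in BEC-like cells, level between the groups. Their part in these rises was not tested. In mesenchymal-like cells, where Il6 itself was read, 0 of 5 passed (3 at an unadjusted p under 0.05 in edgeR, 0 in DESeq2), where 6.81% of all genes did.

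Over 14 sums of a class in a library, the genes most like each member were named from 9411 genes by Pearson's r of log2(CPM + 1), as a description only, since sums of 1 library share its depth and sums of 1 class its cells. Socs3 was most like Id3 (r = 0.949), and Stat3 was most like Socs3 (r = 0.932), so that the transducer gene and its inhibitor gene were near neighbours in this ranking. Lif was most like Clint1 (r = 0.961), Osmr most like Nlk (r = 0.969), and Lifr most like Ltbp4 (r = 0.957). Il6st was most like Rabgef1 (r = 0.966) and Il6ra most like Parp3 (r = 0.933). Il6 was most like Art4 (r = 0.999) and Il11 most like Ssc5d (r = 0.982). For Il6, 1 class was high and the others were near 0.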

How the data were processed

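Single cells of 4 mouse livers were barcoded by split-pool combinatorial barcoding with random and oligo(dT) primers, per the labels' protocols. The deposited matrices hold counts of UMIs per cell and gene, not normalized, per the file headers. The build is GRCm39, per the submitters' processing notes. The aligner and the handling of doublets are not given in the sources used here. Cells under 500 UMIs (7) or over 20% mitochondrial UMIs (11) were left out. Scrublet's method marked 12 doublets (0.0984%), too few to be trusted, and these were removed.

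Cells were clustered (2000 variable genes, 30 components, 20 neighbours, Leiden, resolution 1, scanpy 1.11.5, leidenalg 0.10.2) and named from marker lists, by a scoring rule set after the data were seen (at least 3 and at least 50% of a list's markers, more than 2-fold higher, in at least 5% of cells). Counts were summed per library and class and tested, BDL against sham, with edgeR 4.0.16 (TMM, default low-count filter, quasi-likelihood F test, two-sided, Benjamini-Hochberg adjustment over all genes tested, threshold 0.05), with 2 libraries per group. Classes with under 30 cells in a library were described only. Each SE came from the F statistic and the fold change. CPM were scaled by the class total without TMM. The fits were tested on simulated data.

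The members, lists and tests were chosen with earlier results of these data known. Genes named are all members, up to 3 per direction of each list in BEC-like and 1 in mesenchymal-like cells by adjusted p, and the genes most like each member of at least 10 CPM. Alternatives were DESeq2 1.42.0, its size factors, no filter, resolution 2, leaving out the top 5% of doublet scores, thinning, single sublibraries and leaving out 1 library. Leaving out the cluster led by Fos and Jun, and leaving libraries out of the test between classes, were added after seeing the data. Some genes of the lists that this rule names are not reported here.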

Additional observations from a re-analysis of the deposited data

Results flagged for a closer look

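The change between sham and BDL differed between BEC-like and mesenchymal-like cells for 3 members, by a test of the difference itself (edgeR, class by group interaction with the mouse as a block). The difference in log2 fold change, BEC-like minus mesenchymal-like, was -2.42 for Socs3, -1.87 for Il11 and 1.31 for Lif, where 6.62% of all genes tested passed. Socs3 passed in all 7 alternatives run. Il11 was lost without sham replicate 2 (-1.60, adjusted p = 0.189) and without BDL replicate 2 (-0.66, adjusted p = 0.772), and Lif in 5 of 7 alternatives (adjusted p up to 0.245). In BEC-like cells Socs3 was lower in both BDL libraries than in both sham libraries and Lif higher, while in mesenchymal-like cells the groups overlapped for all 3 genes. With 2 libraries per group no sample could be tested as an outlier.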

How the results depend on the processing

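No paired analysis was possible because replicate numbers are absent from the labels and were given in accession order. The main limits are 2 mice per group, group names that contradict the labels in 2 of 4 libraries (although libraries of 1 label shared their clusters), classes rebuilt from markers, and thin counts of Il6, Il11 and Il22ra1. The cause of the changes listed here was not tested. The count of members passing in BEC-like cells (5) was 6 without the low-count filter and in DESeq2, with Il6st added, 3 in sublibrary 1, where 6 could be tested, and 4 to 5 when 1 library was left out. In mesenchymal-like cells the count (0) was 1, Il11, without the low-count filter, and 0 to 1 when 1 library was left out. Between classes the count (3) was 2 whichever library was left out. Over all genes, calls in BEC-like cells numbered 4347, and 1236 without sham replicate 1, 1745 without sham replicate 2. In mesenchymal-like cells they numbered 598, and 331 in DESeq2, 1090 without the filter, and 155 to 1041 when 1 library was left out.

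Log2 fold changes turned sign for members that had not passed. In BEC-like cells these were Il6ra in sublibraries 2 (0.22) and 6 (0.047), and Il22ra1 in the label-matching libraries (0.23, and -0.55 to 0.39 with 1 library left out). In mesenchymal-like cells they were Il11 in the label-matching libraries (-0.13), Lif in DESeq2 (-0.082) and in those libraries (-2.14, and -1.74 to 0.60), and Il6ra in sublibrary 5 (-0.12). There Osmr turned in sublibraries 3 (-0.17), 5 (-0.58) and 6 (-0.18) and in the label-matching libraries (-0.28, and -0.28 to 0.54), and Socs3 after thinning (-0.010), in sublibraries 2 (-0.22), 3 (-0.16), 4 (-0.49) and 6 (-0.083) and in the label-matching libraries (-0.14, and -0.26 to 0.41). Between classes Lifr spanned -0.48 to 0.26 and Il6, with 6 UMIs in BEC-like cells, -2.74 to 2.55 with 1 library left out. The difference in the share of BEC-like cells with a UMI, in percentage points, turned without thinning for Il6 (0.026), Il11 (0.80), Il6ra (3.35), Lifr (6.59), Il22ra1 (1.07) and Stat3 (10.6).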
